A study of Mus musculus with 4 samples.

Results

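Fatty acid oxidation was examined in alveolar macrophages (AMs), which live in the airspaces of the lung, through 32 genes of mitochondrial and peroxisomal fatty acid breakdown. The genes were taken from a written list by their symbols, and each matched 1 row of a count table of 54532 genes. All 32 passed the filter on low counts, which kept 14256 genes for testing. The count table holds 4 bulk RNA-seq libraries of AMs purified from the lungs of female wild-type mice, which the methods of the study describe as BALB/c mice of 8 to 10 weeks. Controls (2 libraries) carried no tumor, and the mice of the tumor group (2 libraries) had received 4T1 cells, a line of murine mammary carcinoma that metastasizes to the lung, in the mammary fat pad 2 weeks before. No allele or treatment other than the 4T1 cells distinguished the groups. The sources used here do not say whether a library came from 1 mouse or from a pool, so p-values measure only the spread between libraries, which may be technical.

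Fatty acids enter a cell through transport proteins and are joined to coenzyme A by acyl-CoA synthetases. Long chains cross into mitochondria as carnitine esters and are shortened there in repeated rounds of dehydrogenation, hydration, a second dehydrogenation and thiolysis, while peroxisomes shorten very long and branched chains by a parallel set of enzymes. AMs take up and break down the lipids of pulmonary surfactant, and lipid handling in these cells is known to depend on the nuclear receptor PPARγ.

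Library totals ranged from 16167147 to 19205737 counts, with neither group deeper than the other. All 14 AM markers examined, among them Siglecf, Itgax and Mrc1, were detected in every library, and 12 of them were lower in the tumor group and 1, Ear1, was higher. Their summed CPM, the counts scaled to a common library size, was 16406 and 16551 in the controls and 12549 and 12690 in the tumor libraries. Markers of other cells stood in the tumor libraries. The summed CPM of 10 hepatocyte markers was 0.533 to 1.08 in the controls, with 8 of the 10 at 0 in each, and 690.0 to 690.1 in the tumor libraries with none at 0. The corresponding sums were 119.1 to 119.6 and 4474 to 4492 for 10 neutrophil markers, 0.373 to 0.506 and 2668 to 2712 for 5 eosinophil markers, and 0.266 to 0.316 and 63.9 to 74.9 for 6 basophil and mast cell markers. The part of these cells in the changes below was not tested. In bulk RNA, fewer cells of a type and less RNA per cell cannot be told apart.

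With libraries scaled on the bulk of genes (TMM), Slc27a4, a fatty acid transport protein, rose 4.83-fold in the tumor group, the only change of at least 2-fold among the 32 genes under that scaling. Ehhadh, a peroxisomal bifunctional enzyme, rose 1.73-fold and the coactivator gene Ppargc1b rose 1.48-fold. Acsl4, an acyl-CoA synthetase with a preference for arachidonic acid, fell by 47.2%. Apart from Slc27a4, Ehhadh and Acsl4, each of the genes, 29 in number, changed by less than 1.5-fold under TMM.

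By edgeR's quasi-likelihood test with Benjamini-Hochberg adjustment over all 14256 genes at a threshold of 0.05, 18 of the 32 genes were called (56.2%, against 53.8% of all genes tested). Of these, 4 were higher in the tumor group (12.5%, against 29% of all genes), namely Slc27a4, Ehhadh, Ppargc1b and Acaa2. Lower calls numbered 14 (43.8%, against 24.8% of all genes). Changes under 1.5-fold made up 90.6% of the members and 70.2% of all genes, and 15.9% of all genes were called with at least a 2-fold change. In CPM, both tumor libraries lay above both controls for 5 genes (39.3% of all genes did so) and below both controls for 19 genes (35.8% of all genes), and the groups overlapped for 8. Their median on the log2 scale lay at -0.12 (tumor minus control), beside 0.018 over all genes tested. Apart from Acsl4, the 13 genes called lower had changes in CPM between -22.05% and -8.67%, with log2 fold changes from -0.36 to -0.13.

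These directions are relative to the TMM scaling, which takes the bulk of all genes as its base. When libraries were scaled instead on the AM marker list, itself lower in the tumor group, every log2 fold change shifted upward, the median over all genes by 0.49. Under that scaling 30 of the 32 genes were called higher and 1, Acsl4, lower, and 23 changed sign. Calls in either direction covered 75% of all genes, and this is the share meant wherever 75% is given below. Of the 14 genes called lower under TMM, 12 were then called higher. The median of the members lay below that of all genes by 0.14, and 24 of 32 lay below it. Another scaling adds nearly the same amount to every gene, so this position is the same under both by construction. Falls smaller than about 0.49 below are therefore falls against the bulk of genes and not against the AM marker list as a whole. The markers themselves differed widely under TMM. Their log2 fold changes ran from -2.13 (Fabp4) to 0.96 (Ear1), with a median of -0.46. A member may thus fall against some markers and rise against others. The rises of Slc27a4, Ehhadh, Ppargc1b and Acaa2 and the fall of Acsl4 kept their sign under both scalings. On the AM markers the log2 fold changes of Ehhadh and Ppargc1b were 1.28 and 1.07, past 2-fold, and that of Acaa2 was 0.84.

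**Figure D1:**
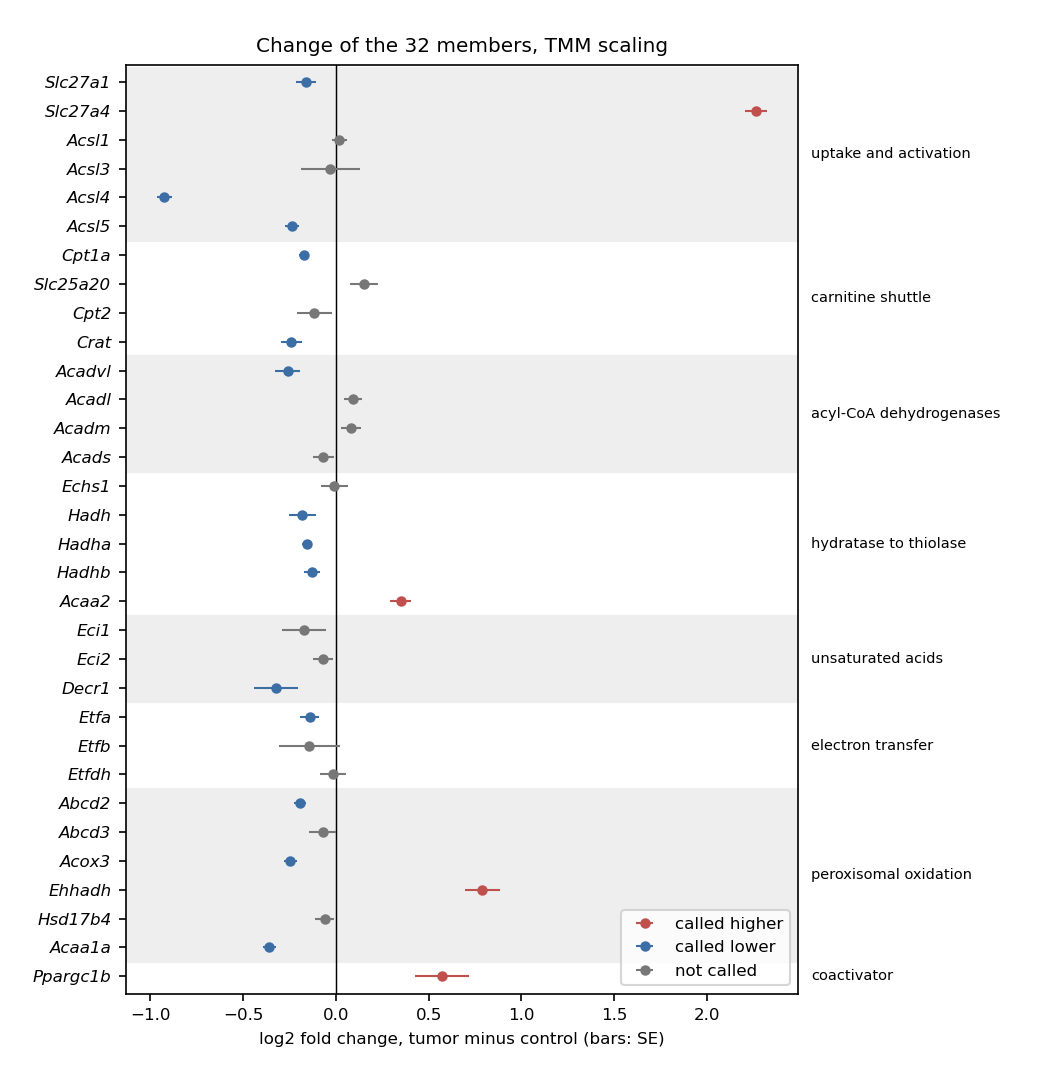
Log2 fold change (tumor minus control, TMM scaling) of each of the 32 genes by role, with bars for the SE from 2 libraries per group and colours for the call at an adjusted p under 0.05. Slc27a4 lies at 2.26 and Acsl4 at -0.92, and the 14 genes not called lie between -0.17 and 0.15; 23 of the 32 change sign when libraries are scaled on the AM marker list.

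Levels between genes were compared per kilobase of gene length, as CPM divided by the length. The length is the one given with the counts and may differ from that of the transcripts present. Places among the genes and multiples between genes are therefore approximate. Cpt1a, the carnitine palmitoyltransferase of the outer mitochondrial membrane and the entry step of long chains, had the highest level in both groups, 127 ± 2.1 (SD, n = 2) in the controls and 113 ± 0.094 in the tumor group. Next in the controls came Abcd2 at 56.7 ± 1.3, Etfa at 47.7 ± 0.18 and Acadl at 47.1 ± 2.1. Etfa and Acadl did not differ beyond their spread there. In the tumor group Acadl (50.2 ± 2.5), Abcd2 (49.6 ± 2.4) and Acaa2 (49.0 ± 0.26) followed Cpt1a and did not differ beyond their spread. Slc27a4 moved from place 25 among the 32 genes in the controls to place 8, Acsl4 from 9 to 15 and Ehhadh from 26 to 22. The lowest level in both groups was that of Acsl3, an acyl-CoA synthetase of the endoplasmic reticulum and lipid droplets. The summed level of the 32 genes was 736.7 and 742.6 in the controls and 714.2 and 699.6 in the tumor libraries.

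**Figure D2:**
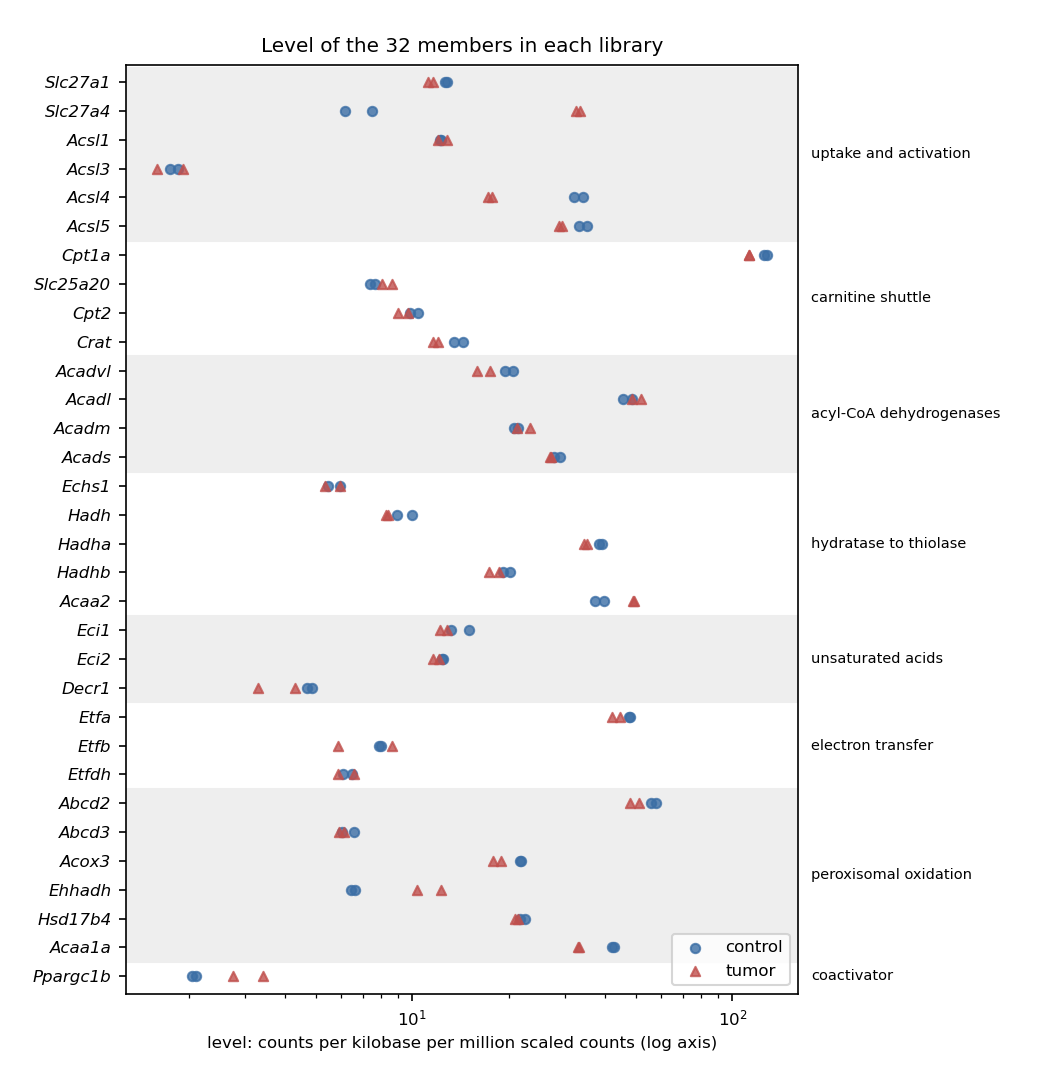
Level of the 32 genes in each of the 4 libraries, in CPM per kilobase of gene length on a log axis, grouped by role. Cpt1a lies highest in every library, and the separation of the groups is widest for Slc27a4, from a mean of 6.82 in the controls to 33.0 in the tumor group.

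Among the genes of uptake and activation, Slc27a4 rose, Slc27a1, Acsl4 and Acsl5 fell, and Acsl1 and Acsl3 were not called. Slc27a4 (ENSMUSG00000059316, chr2:29802634-29817522 on GRCm38, plus strand) encodes a transport protein of long and very long chain fatty acids that also has acyl-CoA synthetase activity. Its CPM was 33.0 and 27.1 in the controls and 143.7 and 147.2 in the tumor libraries. Both tumor libraries lay far above both controls. The log2 fold change was 2.26 ± 0.061 (SE, edgeR, adjusted p = 3.21e-22), and it ranged from 2.12 to 2.41 when each library was left out in turn.

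Acsl4 (ENSMUSG00000031278, chrX:142317993-142390535, minus strand) had a CPM of 185.0 and 172.7 in the controls and 95.8 and 92.9 in the tumor libraries. The groups were well apart, with the tumor libraries the lower. The log2 fold change was -0.92 ± 0.042 (SE, edgeR, adjusted p = 5.97e-17) and -0.43 under scaling on the AM markers. The synthetases therefore changed unequally. The level of Acsl4 relative to Acsl1, the broad synthetase of long chains, was 2.78 and 2.62 in the controls and 1.38 and 1.43 in the tumor libraries, and relative to Acsl5 it went from 0.971 and 0.965 to 0.605 and 0.597.

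Acsl5, a synthetase of the mitochondrial outer membrane and endoplasmic reticulum, fell by 14.98%, from 171.5 and 161.0 CPM to 142.6 and 140.1. Slc27a1, the transport protein best known from muscle and fat, fell by 10.4%, from 74.8 and 73.8 CPM to 67.6 and 65.6. Without control replicate 1 its log2 fold change was -0.16 and the call was lost (edgeR, adjusted p = 0.0862). The level of Slc27a4 relative to Slc27a1 within a library went from 0.584 and 0.486 in the controls to 2.81 and 2.97 in the tumor libraries, so the order of these transporters was inverted. Acsl1 had 127.6 to 129.0 CPM in the controls and 125.9 to 134.4 in the tumor libraries, and Acsl3 6.92 to 8.40 over all 4 libraries, with overlapping groups for both. Zdhhc6 overlaps Acsl5 on the opposite strand and Utp14b overlaps Acsl3 on the same strand. The strand setting of the counting is not given in the sources used here, so reads of such partners may not be separated.

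The bases before the RefSeq transcription starts of the 3 genes with the largest called changes for which RefSeq gave a start are shown because the results turn on these genes. They are from RefSeq on build GRCm38.p6, written 5′ to 3′ on the strand of the gene. The stretch of Slc27a4 is chr2:29802384-29802633 (plus strand), that of Acsl4 chrX:142390536-142390785 (minus strand) and that of Ehhadh chr16:21787835-21788084 (minus strand). Each has 250 bases. The GC content was 54.4% for Slc27a4, 70.8% for Acsl4 and 60.4% for Ehhadh, with 8, 25 and 12 CpG dinucleotides. None of them held AGGTCA, the half-site of nuclear receptors of the PPAR kind, on either strand, so no letters are in capitals.
Slc27a4: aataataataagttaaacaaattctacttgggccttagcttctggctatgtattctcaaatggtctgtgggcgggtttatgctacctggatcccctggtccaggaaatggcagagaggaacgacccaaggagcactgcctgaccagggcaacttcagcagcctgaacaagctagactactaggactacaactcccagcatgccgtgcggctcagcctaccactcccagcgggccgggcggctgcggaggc
Acsl4: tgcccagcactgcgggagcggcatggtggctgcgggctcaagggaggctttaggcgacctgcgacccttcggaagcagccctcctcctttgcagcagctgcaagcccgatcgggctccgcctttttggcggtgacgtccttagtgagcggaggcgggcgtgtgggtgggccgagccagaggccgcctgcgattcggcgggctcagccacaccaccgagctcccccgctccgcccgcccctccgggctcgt
Ehhadh: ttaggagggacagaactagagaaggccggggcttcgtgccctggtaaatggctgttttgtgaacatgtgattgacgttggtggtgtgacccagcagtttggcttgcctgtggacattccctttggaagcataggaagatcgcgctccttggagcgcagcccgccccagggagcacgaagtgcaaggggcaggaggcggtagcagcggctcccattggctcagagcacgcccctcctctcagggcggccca

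**Figure D3:**
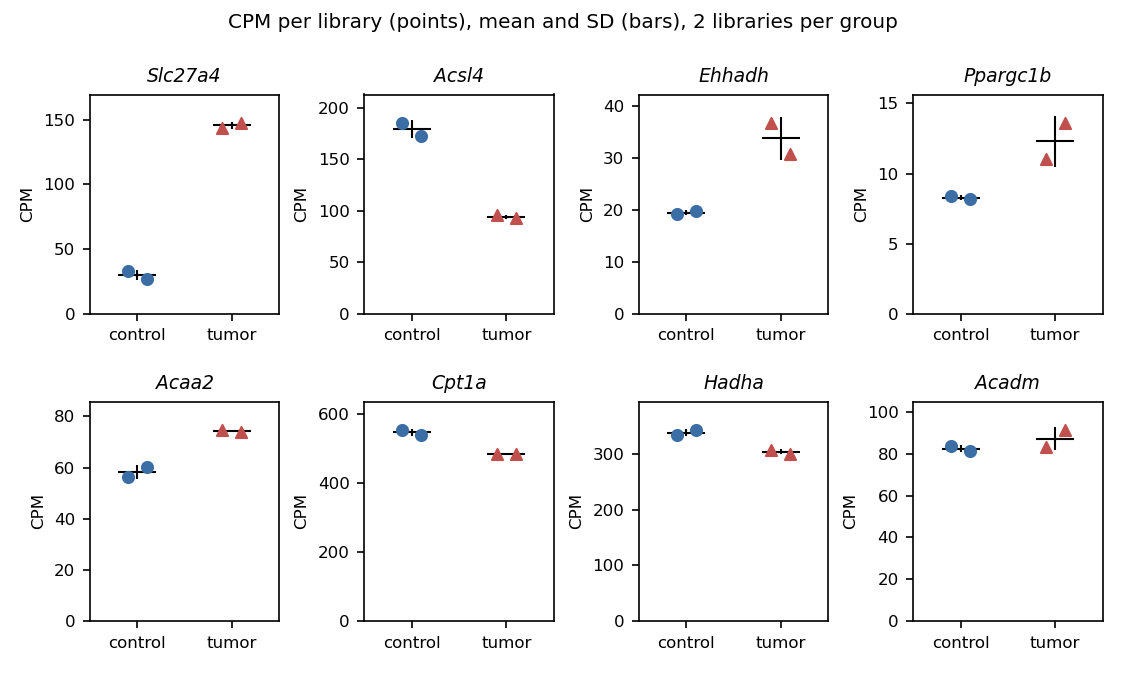
CPM of 8 genes in each library (points, 2 per group) with the mean and SD (bars), each on its own axis from 0. Slc27a4, Ehhadh, Ppargc1b and Acaa2 lie higher and Acsl4 lower in both tumor libraries; Cpt1a and Hadha lie slightly lower, a direction that turns under scaling on the AM marker list, and the groups of Acadm overlap.

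In the carnitine shuttle, Cpt1a and Crat fell slightly and Slc25a20 and Cpt2 were not called. Cpt1a went from 553.5 and 540.6 CPM to 485.0 and 484.5, and fell by 11.4% (log2 fold change -0.17 ± 0.025, SE, edgeR adjusted p = 7.72e-07). Crat, which moves acetyl and other short groups between coenzyme A and carnitine, went from 72.5 and 77.8 CPM to 64.9 and 62.4, and fell by 15.4%. Neither pair of groups overlapped. The log2 fold change of both turned positive, to 0.32 and 0.25, under scaling on the AM markers. Dolpp1, with up to 363 counts in a library, lies on the opposite strand over part of Crat, which had at least 1125, so the counts of Crat are uncertain. Slc25a20, the carrier that exchanges acylcarnitine for carnitine across the inner membrane, was at 36.9 and 35.8 CPM in the controls and 41.8 and 38.9 in the tumor libraries, with a log2 fold change of 0.15 (adjusted p = 0.0955, edgeR). Without tumor replicate 2 it was 0.20 and was called, with an adjusted p just under the threshold. Cpt2, the transferase of the inner membrane, was at 23.6 and 24.9 CPM and at 23.1 and 21.6. The level of Cpt1a relative to Cpt2 was 12.1 to 13.1 in the controls and 11.7 to 12.5 in the tumor libraries, which overlap.

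Of the 4 acyl-CoA dehydrogenases, which begin each round and differ in the chain length they take, 1, Acadvl, was called (53.8% of all genes were). Acadvl, for very long chains, fell by 16.7%, from 52.4 and 55.4 CPM to 42.7 and 47.1 (log2 fold change -0.26 ± 0.068, SE, edgeR adjusted p = 0.00204). It became 0.23 under scaling on the AM markers. Acadl, for long chains, was at 91.5 and 97.4 CPM in the controls and 104.2 and 97.1 in the tumor libraries. Acadm, for medium chains, was at 83.8 and 81.4 CPM and at 83.3 and 91.3. The groups of both genes overlapped and neither was called under TMM with the filter described above. Acadl was called with at least 10 counts in every library (0.12). With library totals both were called higher, at 0.16 for Acadl and 0.15 for Acadm (edgeR, adjusted p = 0.00741 and 0.0183). On the AM markers they were called at 0.59 and 0.58. The log2 fold change of Acadl was 0.14 without tumor replicate 2 (edgeR, adjusted p = 0.0243) and 0.036 without tumor replicate 1 (adjusted p = 0.615). That of Acadm was 0.14 without tumor replicate 1 (edgeR, adjusted p = 0.0319) and 0.0074 without tumor replicate 2 (adjusted p = 0.930). Acads, for short chains, was at 65.5 and 63.0 CPM in the controls and 61.1 and 61.5 in the tumor libraries and was not called. The level of Acadl relative to Acadvl went from 2.34 and 2.35 to 3.27 and 2.76. Reads of Dvl2, which lies on the opposite strand over part of Acadvl, may add to the counts of Acadvl, since strand was not given; Dvl2 had up to 382 counts in a library and Acadvl at least 740.

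Of the enzymes that complete the mitochondrial round, Hadh, Hadha and Hadhb fell slightly, Acaa2 rose and Echs1 was not called. Acaa2, the thiolase that releases acetyl-CoA in mitochondria, went from 56.4 and 60.3 CPM to 74.6 and 74.0, a rise of 27.3% (log2 fold change 0.35 ± 0.057, SE, edgeR adjusted p = 6.35e-06). Hadha and Hadhb encode the subunits of the mitochondrial trifunctional protein, which carries out the last steps for long chains. Hadha went from 334.4 and 342.6 CPM to 307.4 and 300.6, and fell by 10.2%. Hadhb went from 126.7 and 133.4 to 114.3 and 123.2, and fell by 8.67%. In all 4 libraries Hadha had close to the same multiple of the level of Hadhb, 1.99 and 1.94 in the controls and 2.03 and 1.84 in the tumor libraries, so the subunits moved together within the spread of the libraries. The log2 fold changes of both turned positive under scaling on the AM markers, to 0.34 and 0.37. The call of Hadhb was lost without control replicate 2 (log2 fold change -0.11, edgeR, adjusted p = 0.0883) and without tumor replicate 1 (-0.083, adjusted p = 0.165).

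Hadh, the hydroxyacyl dehydrogenase of medium and short chains, went from 44.5 and 49.7 CPM to 41.7 and 41.3, and fell by 11.9%. Its call was lost without control replicate 2 (log2 fold change -0.12, edgeR, adjusted p = 0.311) and without tumor replicate 2 (-0.18, adjusted p = 0.0600). Under scaling on the AM markers its log2 fold change was 0.31. Echs1, the hydratase of short chains, was at 45.1 and 49.1 CPM in the controls and 49.4 and 44.3 in the tumor libraries, with overlapping groups. Paox lies on the opposite strand over part of Echs1, with up to 98 counts in a library against at least 776.

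Hadha and Hadhb lie head to head on chromosome 5 and are transcribed away from each other. The 85 bases between their annotated starts, chr5:30155163-30155247 on GRCm38.p6, are shown on the plus strand as the sequence shared by a pair of genes that moved together. They hold 9 CpG dinucleotides, a GC content of 69.4% and no AGGTCA.
Hadha-Hadhb: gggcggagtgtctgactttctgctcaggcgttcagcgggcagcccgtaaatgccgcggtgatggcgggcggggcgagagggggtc

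The 3 genes of enzymes that prepare unsaturated chains had both tumor libraries below both controls, as had 35.8% of all genes, and 1 of them, Decr1, was called. Decr1, the mitochondrial 2,4-dienoyl-CoA reductase, went from 18.8 and 18.2 CPM to 12.8 and 16.6, and fell by 20.3% (log2 fold change -0.32 ± 0.12, SE, edgeR adjusted p = 0.0240). The tumor libraries differed more from each other than the controls did. Its call was lost without tumor replicate 1 (-0.16, edgeR, adjusted p = 0.295) and without control replicate 1 (-0.31, adjusted p = 0.0778), and under scaling on the AM markers it was 0.17 and not called. The enoyl-CoA isomerases Eci1 (14.4 and 16.4 CPM against 14.01 and 13.3) and Eci2 (68.5 and 69.0 against 67.0 and 64.2) were not called.

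Electrons from the dehydrogenases pass to the electron transfer flavoprotein, made of the products of Etfa and Etfb, and from it to ubiquinone through the product of Etfdh. Etfa went from 87.8 and 87.3 CPM to 82.0 and 77.0, and fell by 9.23% (log2 fold change -0.14 ± 0.050, SE, edgeR adjusted p = 0.0192). The call was lost without control replicate 1 (-0.15, edgeR, adjusted p = 0.0830) and without tumor replicate 2 (-0.0998, adjusted p = 0.148), and the value was 0.35 under scaling on the AM markers. Etfb was at 9.32 and 9.18 CPM in the controls and 10.04 and 6.82 in the tumor libraries. The tumor libraries thus lay on both sides of the controls, and without tumor replicate 1 Etfb had a log2 fold change of -0.45 (edgeR, adjusted p = 0.0267), without tumor replicate 2 0.11. Etfdh was at 48.5 and 45.4 CPM and at 49.3 and 43.9, with overlapping groups.

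In peroxisomal oxidation, Ehhadh rose, Abcd2, Acox3 and Acaa1a fell, and Abcd3 and Hsd17b4 were not called. Ehhadh (ENSMUSG00000022853, chr16:21761287-21787807, minus strand) encodes the L-bifunctional enzyme, which hydrates and dehydrogenates straight chains and is a known target of PPARα in liver. Its CPM was 19.2 and 19.8 in the controls and 36.7 and 30.8 in the tumor libraries. Both tumor libraries lay above both controls, and they differed more from each other than the controls did. The log2 fold change was 0.79 ± 0.095 (SE, edgeR, adjusted p = 5.02e-08), from 0.65 to 0.91 with each library left out. The hepatocyte markers rose in the same libraries, as given above, and their part in the rise of Ehhadh was not tested. Hsd17b4, which encodes the D-bifunctional enzyme for the same steps, was at 74.0 and 76.4 CPM and at 71.1 and 72.8. Its counts may be shared with the pseudogene Cd63-ps, which overlaps it on the same strand with up to 307 counts in a library. The level of Ehhadh relative to Hsd17b4 was 0.297 and 0.296 in the controls and 0.590 and 0.484 in the tumor libraries.

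Acaa1a, a peroxisomal thiolase, went from 185.5 and 189.0 CPM to 145.2 and 146.7, and fell by 22.05% (log2 fold change -0.36 ± 0.036, SE, edgeR adjusted p = 1.62e-09). The groups were well separated, but under scaling on the AM markers the value was 0.14. Its counts are uncertain, because Acaa1b is a near-identical paralog and because Myd88, with up to 2900 counts in a library, lies on the opposite strand over part of the gene. The level of the mitochondrial thiolase Acaa2 relative to Acaa1a was 0.886 and 0.930 in the controls and 1.496 and 1.47 in the tumor libraries. Acox3, the oxidase of branched chains, went from 250.8 and 252.7 CPM to 218.7 and 206.4, and fell by 15.6%. Abcd2, a transporter of very long chain acyl-CoA into the peroxisome, went from 331.5 and 342.5 to 304.8 and 284.5, and fell by 12.6%. The log2 fold changes of Acox3 and Abcd2 were 0.25 and 0.30 under scaling on the AM markers. Abcd3, a transporter of the peroxisomal membrane, was at 38.8 to 43.3 CPM, with overlapping groups. The level of Abcd2 was 8.76 to 9.25 times that of Abcd3 in the controls and 8.13 to 8.41 times in the tumor libraries.

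Ppargc1b encodes PGC-1β, a coactivator of nuclear receptors on genes of mitochondria and fatty acid oxidation. Its CPM was 8.42 and 8.16 in the controls and 11.0 and 13.6 in the tumor libraries. The tumor libraries were the higher and the groups did not overlap. The log2 fold change was 0.57 ± 0.14 (SE, edgeR, adjusted p = 0.00133), from 0.40 to 0.70 with each library left out. At 129 to 267 counts a library it was among the least counted of the 32 genes.

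**Figure D4:**
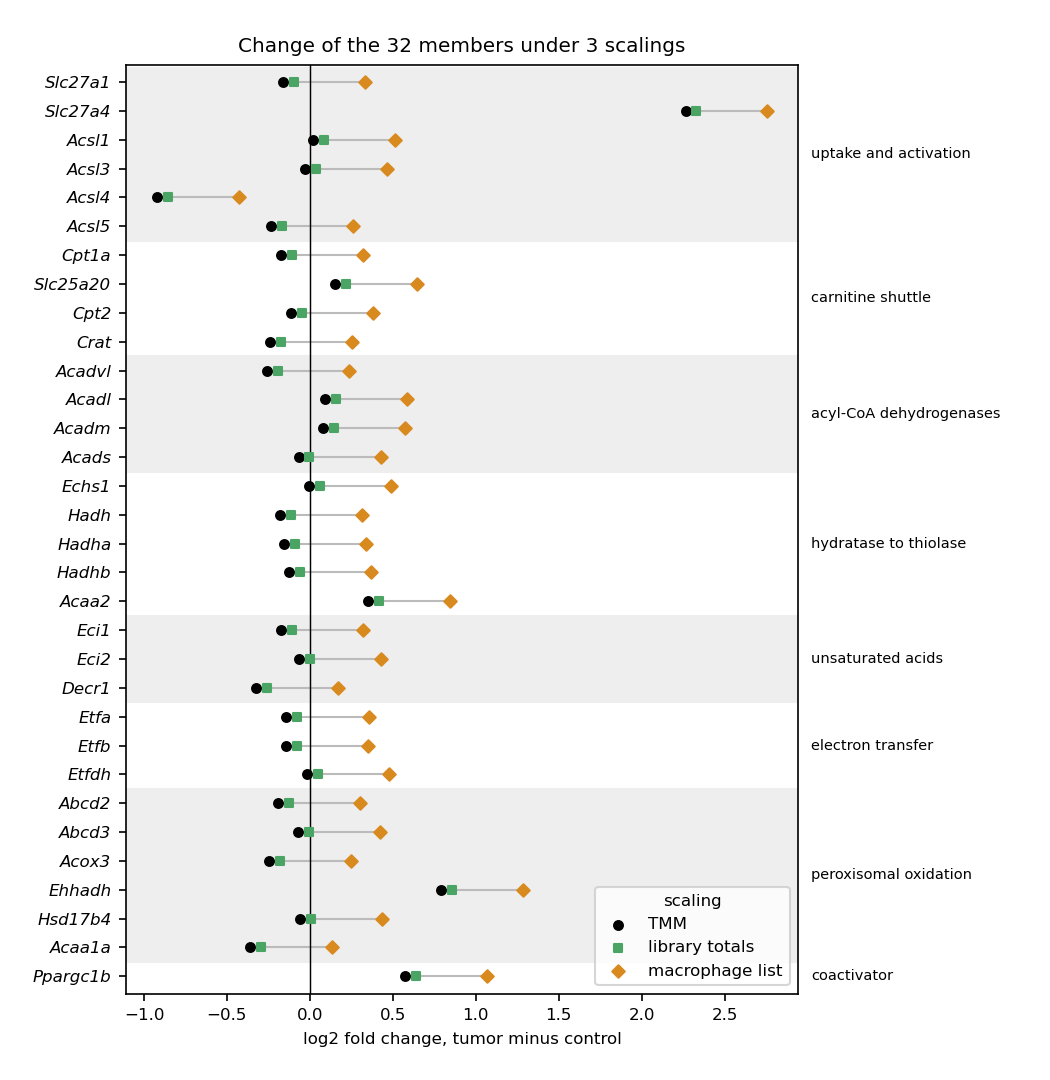
Log2 fold change (tumor minus control) of the 32 genes under TMM, under library totals and under scaling on the AM marker list, grouped by role. The list scaling moves each gene upward, and the members' median from -0.12 to 0.37, while Slc27a4 and Acsl4 remain at the right and left ends.

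Other genes of the pathway, taken from a written list of 70, were examined in the same fit. Of the 65 that were tested, 17 were called higher and 20 lower (median -0.043 on the log2 scale), where 29% of all genes were called higher and 24.8% lower. Without control replicate 1 there were 11 higher and 16 lower calls of 66 tested (43.5% of all genes were called in that fit), and the Wald test of DESeq2 gave 12 higher and 15 lower of 65. Under scaling on the AM markers, which called 75% of all genes, 51 were called higher and 3 lower, the last being Acaa1b, Pex11a and Pdk4. Among the other genes of uptake and activation, Cd36, the scavenger receptor that takes up long chain fatty acids, went from 267.4 and 249.8 CPM to 187.9 and 190.6 (log2 fold change -0.45, edgeR, adjusted p = 7.51e-12). It was 0.04 and not called under scaling on the AM markers. Slc27a2, a transport protein abundant in liver and kidney, was counted 195 and 214 times in the tumor libraries and never in the controls. This is at least 57.4-fold higher against the floor of 3 counts per library. Slc27a3 was counted at 14 to 16 in the controls and 27 to 38 in the tumor libraries, with a log2 fold change of 1.01 that was called with all libraries (edgeR, adjusted p = 0.0284). Its call was lost without control replicate 1 (0.97, edgeR, adjusted p = 0.165), control replicate 2 (1.01, adjusted p = 0.125) or tumor replicate 2 (0.83, adjusted p = 0.166).

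Cpt1b, the muscle form of the entry enzyme, had 4 to 10 counts in every library and was not tested, so the outer membrane step was measured almost wholly through Cpt1a. Of the 3 other genes of the shuttle and its malonyl-CoA control that were tested, 1 was called, lower (24.8% of all genes were), and it was Acaca, the acetyl-CoA carboxylase of the cytosol (named after its value was seen), with 60.6 and 60.3 CPM in the controls and 37.7 and 41.5 in the tumor libraries. Its log2 fold change was -0.61, and -0.11 without a call under scaling on the AM markers. Of 11 other mitochondrial genes tested, 3 were called higher and 1 lower, where 29% and 24.8% of all genes were, and under scaling on the AM markers all 11 were called higher, where 75% of all genes were called. Under TMM the calls were 2 higher without control replicate 1 or without control replicate 2, 1 higher and 1 lower without tumor replicate 1, and 3 higher without tumor replicate 2, with the lower call lost in all but the fit without tumor replicate 1.

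Of 14 other peroxisomal genes tested, 7 were called higher and 4 lower (median 0.26 on the log2 scale, with 29% of all genes called higher and 24.8% lower). Under scaling on the AM markers 11 were called higher and 1 lower (median 0.75, beside 0.51 over all genes, of which 75% were called). Acaa1b, the paralog of Acaa1a, went from 487.0 and 475.6 CPM to 224.6 and 237.3 (log2 fold change -1.06 ± 0.030, SE, edgeR adjusted p = 8.66e-22) and was still called lower, at -0.56, under scaling on the AM markers.

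Crot, which makes carnitine esters for export from peroxisomes, rose from 33.7 and 36.2 CPM to 43.1 and 41.1 (log2 fold change 0.27, edgeR, adjusted p = 0.00329). The call of Crot was lost without control replicate 1 (0.21, edgeR, adjusted p = 0.0883). Amacr, the racemase that prepares branched chains, rose from 2.08 and 1.39 CPM to 4.90 and 3.36 (1.22 ± 0.27, SE, edgeR adjusted p = 0.000416). Acox2, the oxidase of bile acid intermediates, was counted 19 and 21 times in the tumor libraries and never in the controls, which is at least 5.63-fold higher against the same floor. Acox2 and Slc27a2 are known for high expression in hepatocytes, whose markers rose in the same libraries as given above, and the part of such cells in these values was not tested.

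Peroxins, the proteins that build peroxisomes, were called higher in 2 and lower in 6 of 16 cases (median -0.13 on the log2 scale, with 29% of all genes called higher and 24.8% lower). Under scaling on the AM markers the balance turned to 11 higher and 1 lower (median 0.36, beside 0.51 over all genes, of which 75% were called). Among the 2 higher calls under TMM, that of Pex6 depended on single libraries, with log2 fold changes of 0.15 to 0.20 when each was left out. Library totals gave 4 higher calls, where 53.6% of all genes were called. Pex11a, which promotes the division of peroxisomes, went from 61.1 and 55.1 CPM to 25.3 and 24.0 (log2 fold change -1.24 ± 0.077, SE, edgeR adjusted p = 6.36e-14). Both tumor libraries were under the lower control by a wide margin, and the call held at -0.74 under scaling on the AM markers. Pex26, a membrane anchor of the import machinery, rose from 1.60 and 1.90 CPM to 5.02 and 4.63 (1.47 ± 0.24, SE, edgeR adjusted p = 9.06e-06).

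**Figure D5:**
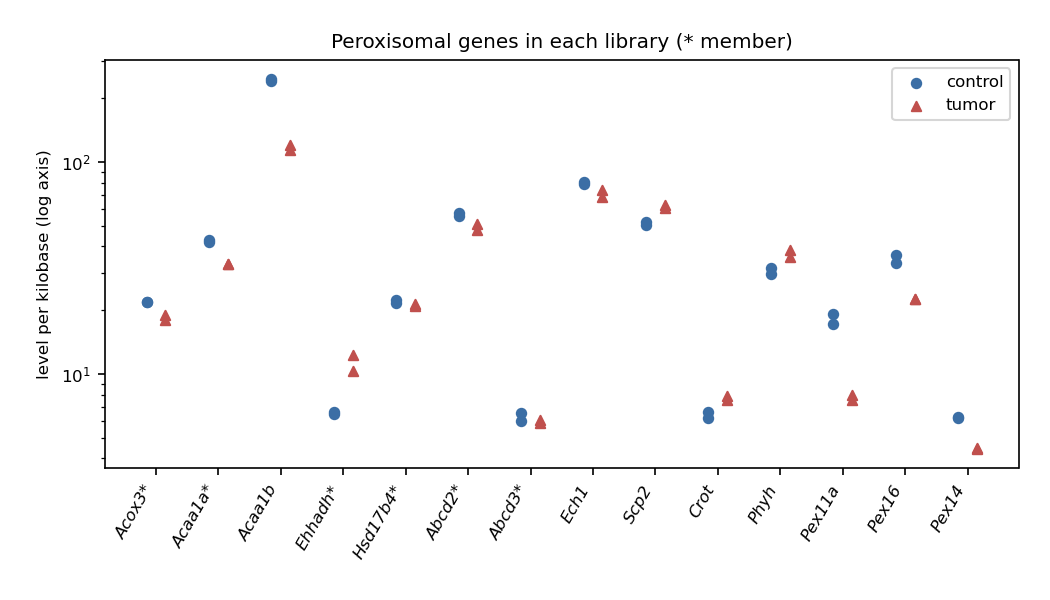
Level of 14 peroxisomal genes in each library, in CPM per kilobase of gene length on a log axis, with members of the 32 marked by an asterisk. Acaa1b and Pex11a lie lower and Ehhadh higher in both tumor libraries under every scaling run, while the lower position of Acox3, Acaa1a and Abcd2 holds against the bulk of genes and is turned under scaling on the AM marker list.

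Of 6 regulators tested, 2 were called higher (29% of all genes were) and 2 lower (24.8% of all genes), and under scaling on the AM markers all 6 were called higher, where 75% of all genes were called. The 2 higher under TMM are named after their values were seen. Rxra, the partner receptor of the PPARs, rose from 247.3 and 258.0 CPM to 300.0 and 312.8 (log2 fold change 0.28, edgeR, adjusted p = 1.68e-08). Nrf1, a transcription factor of nuclear genes for mitochondrial proteins, was at 29.3 and 29.9 CPM and at 34.0 and 35.7 (0.24, edgeR, adjusted p = 0.0140). The call of Nrf1 was lost without control replicate 1 (0.21, edgeR, adjusted p = 0.112), control replicate 2 (0.23, adjusted p = 0.0705) or tumor replicate 2 (0.19, adjusted p = 0.0843). Pparg went from 226.6 and 219.8 CPM to 194.6 and 189.4 (log2 fold change -0.22, edgeR, adjusted p = 3.29e-06) and was 0.28 under scaling on the AM markers, a list that holds Pparg itself. Ppard, the receptor PPARδ, went from 47.5 and 44.9 CPM to 41.0 and 39.5 (-0.20, edgeR, adjusted p = 0.0169, and 0.29 under that scaling). Its call was lost without control replicate 1 (-0.17, edgeR, adjusted p = 0.155) and without tumor replicate 2 (-0.18, adjusted p = 0.0598). Esrra, the receptor ERRα, was at 52.9 and 56.1 CPM and at 49.9 and 53.3 and was not called under TMM.

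Ppara, the receptor PPARα, had 0 to 5 counts in a library and Ppargc1a, which encodes PGC-1α, was counted 7 times in tumor replicate 1 and never elsewhere. Neither passed the filter for the test. For Ppara, with 1 and 0 counts in the controls and 5 in each tumor library, the ratio of the summed counts, scaled by library size, was 9.35 (95% exact binomial counting interval 1.33 to 406, which covers counting error only and not the spread between libraries). Of 5 genes known to respond to PPARs, 4 were called lower by edgeR at the same threshold, where 24.8% of all genes were. The members Cpt1a, Hadhb and Slc25a20 were written in the same list but are not among the 5. Their log2 fold changes were -0.17, -0.13 and 0.15, the last not called. Ehhadh, which rose, was not on the list. Pdk4, the kinase that closes pyruvate dehydrogenase, went from 18.3 and 18.7 CPM to 9.11 and 9.62 (log2 fold change -0.98 ± 0.12, SE, edgeR adjusted p = 7.12e-08) and remained called lower at -0.49 under scaling on the AM markers. Under that scaling, which called 75% of all genes, 3 of the 5 genes were called higher and 1 lower.

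The upstream sequences of the members were searched for nuclear receptor elements on both strands. RefSeq gave a start for 26 of the 32 genes, with 30 windows that ran from 250 bases before to 50 bases after a start. The half-site AGGTCA was found in 4 of the 30 member windows, those of Acadm, Acadvl, Cpt1a and Echs1, and in 16.3% of all 32851 windows of the same length. The DR1 element, a direct repeat of AGGTCA with 1 base between the copies, was in none of the member windows and in 0.0396% of all. TCAAGGTCA, the element of ERRα, which contains AGGTCA, was in none of them and in 0.423% of all. CACGTG, the E-box, was in 1 member window, that of Slc27a1, and in 7.15% of all. The half-sites are shown with their flanks because they are the only matches of the receptor motifs among the members, with the half-site in capitals, as AGGTCA or its complement on the strand of the gene. They are at chr3:153944877-153944893 for Acadm (minus strand), chr11:70015500-70015525 for Acadvl (minus strand), chr19:3323197-3323222 for Cpt1a (plus strand) and chr7:140116489-140116514 for Echs1 (minus strand) on GRCm38.p6.
Acadm: gTGACCTtcgggctccg
Acadvl: ggatcaccctAGGTCAggtagaatac
Cpt1a: gtttccttacTGACCTcctccccgca
Echs1: cagcccgctcAGGTCAcgggtccacc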

How the data were processed

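Bulk RNA-seq of alveolar macrophages comprised 2 control and 2 tumor libraries, grouped by the titles in the labels. Per the labels, total RNA was isolated with TRIzol and prepared with a NEBNext Ultra RNA kit, and the methods of the study describe paired-end HiSeq reads, alignment with HISAT2 2.0.5, a version that the processing notes of the submitters also give, and counting with featureCounts. The authors deposited raw counts of whole reads for each gene, without normalization. The genome build, the annotation and the handling of strand and multiple matches are not given in the sources used here, so counts of paralogs and of overlapping genes may be shared. Coordinates were those of GRCm38, since 98.3% of the 54495 identifiers found in GENCODE M21 had the same coordinates there.

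Tests were run with edgeR 4.0.16 (R 4.3.3) on the genes that filterByExpr retained with a minimum count of 10. Libraries were scaled by TMM (factors 0.977 to 1.02) and tested by the quasi-likelihood test with group alone, with Benjamini-Hochberg adjustment over the 14256 genes tested. The methods of the study describe no test of these counts, and the processing notes of the submitters list DESeq2 without saying what it was used for. The biological coefficient of variation was 0.0303, and an exact permutation of 2 against 2 libraries cannot reach the threshold of 0.05. CPM and levels per kilobase use the TMM-scaled library size and the gene length in the table, and SDs are over 2 libraries. A value of 3 counts or fewer was taken as the floor, 0.156 to 0.186 CPM before scaling, folds against a group at 0 are bounds, and with 1 to 3 counts a ratio is given with its counting interval. Replicates differed by more than sampling noise (chi-square per gene 1.81 for the controls and 2.30 for the tumor pair). The test was first checked on simulated counts.

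The members and gene lists were chosen with earlier results of these data known. Members were described by role, with full statistics for called members with a log2 fold change of at least 0.5 in size, and other pathway genes were named where called with at least 1 or as a paralog or regulator of a member, though a few of these are not reported here. Acaca, Rxra, Nrf1 and the genes of the closing section were picked once their values had been seen. Alternatives were DESeq2 size factors, library totals, scaling on the AM markers, no filter, a minimum of 10 counts in each library, limma-voom (limma 3.58.1), DESeq2 1.42.0 with its Wald test, the replicate number as a block and leaving out each library, where the lone library of a group is assumed to vary like the other group. RefSeq promoter sequences were searched with Python 3.11.15.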

Additional observations from a re-analysis of the deposited data

How the results depend on the processing

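Of the 32 genes, Slc27a4, Acsl4, Ehhadh, Ppargc1b and Acaa2 kept their direction and their call in all 12 alternatives. DESeq2 size factors, no filter, limma-voom and the replicate block each gave 4 higher and 14 lower calls. Of all genes tested, 54%, 31.3%, 53.2% and 52.2% were called in these fits. The median log2 fold changes of the members were -0.13, -0.14, -0.12 and -0.12. The replicate numbers only name the libraries, since deviations of same-numbered libraries had a correlation of -0.0028 over genes. Library totals gave 7 higher and 9 lower calls and a median of -0.056, with 53.6% of all genes called. The values of Acsl3 (0.036), Echs1 (0.058), Etfdh (0.050) and Hsd17b4 (0.0049) turned positive there. Slc25a20 (0.22), Acadl (0.16) and Acadm (0.15) gained a call, and Slc27a1, Hadh, Hadhb, Decr1 and Etfa lost theirs. The DESeq2 Wald test gave 9 lower calls, the calls of Slc27a1, Hadh, Hadhb, Decr1 and Etfa being lost, while calls over all genes went from 53.8% to 41.1%. At least 10 counts in every library gave 5 higher and 13 lower calls, with 53.1% of all genes called. Hadh was lost there (-0.16, edgeR, adjusted p = 0.0673) and Acadl gained (0.12, adjusted p = 0.0332), and Echs1 turned to 0.017 and Etfdh to 0.0094. The cause of these differences was not tested.

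Scaling on the AM markers gave 30 higher and 1 lower calls and a median of 0.37, beside 0.51 over all genes, of which 75% were called in either direction. It turned Slc27a1 to 0.33, Acsl3 to 0.46, Acsl5 to 0.26, Cpt1a to 0.32, Cpt2 to 0.38, Crat to 0.25, Acadvl to 0.23, Acads to 0.43, Echs1 to 0.49, Hadh to 0.31, Hadha to 0.34, Hadhb to 0.37, Eci1 to 0.32, Eci2 to 0.43, Decr1 to 0.17, Etfa to 0.35, Etfb to 0.35, Etfdh to 0.48, Abcd2 to 0.30, Abcd3 to 0.42, Acox3 to 0.25, Hsd17b4 to 0.43 and Acaa1a to 0.14. By construction it moves all genes upward when the markers fall.

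With each library left out, higher calls ranged from 4 to 6, lower calls from 11 to 13 and the median from -0.15 to -0.091, with 43.5% to 50.3% of all genes called. The sign turned within the range for Acsl1 (-0.034 to 0.062), Acsl3 (-0.19 to 0.091), Echs1 (-0.092 to 0.067), Etfb (-0.45 to 0.11) and Etfdh (-0.11 to 0.064). Counts of 0 to 10 in Ppara, Ppargc1a and Cpt1b limit what can be said of them.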

Other observations

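Some genes of the pathway outside those named by rule were picked out after their values were seen, and are given as values. Plin2, a coat protein of lipid droplets, had 1845 and 1843 CPM in the controls and 1531 and 1528 in the tumor libraries (log2 fold change -0.27, edgeR, adjusted p = 1.94e-13), and its log2 fold change was 0.23 under scaling on the AM markers. Scp2, whose product includes a peroxisomal thiolase for branched chains, and Phyh, the enzyme that starts the breakdown of phytanic acid, had log2 fold changes of 0.26 and 0.28 (edgeR, adjusted p = 2.15e-07 and 0.000257) and were called higher under both scalings. The peroxisomal thioesterases differed in direction, with log2 fold changes of -0.71 for Acot4 and 0.62 for Acot8. Acot4 was at -0.22 and not called under scaling on the AM markers, and the call of Acot8 was lost without control replicate 1 (0.45, edgeR, adjusted p = 0.0622).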
